A study of Mus musculus with 18 samples.

Results

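Integrin chains that thymocytes carry, 10 in number, were followed through selection in the fetal thymus: the alpha chains Itga4, Itga5, Itga6, Itgae, Itgal and Itgav, and the beta chains Itgb1, Itgb2, Itgb3 and Itgb7. They are 10 of the 22180 genes that had a row with a single gene symbol on the array, and where a gene had several rows the brightest was used. Thymocytes were taken from embryonic day 18.5 fetuses on a C57BL/6 background that were wild type (WT), Gli3+/- or Gli3-/-, and were sorted into CD69- DP cells (CD4+CD8+CD69-), CD69+ DP cells (CD4+CD8+CD69+) and SP4 cells (CD4+CD8-). Gli3 is a transcription factor of the Hedgehog pathway, its loss here was in every cell of the fetus, thymic stroma included, and no other allele or treatment distinguished the groups. There were 2 arrays (number 1 and number 2) for every combination of genotype and population, so that each population was measured on 6 arrays and the series on 18. Values are array intensities on a linear scale, and differences are given on the log2 scale. The sources used here do not say whether the numbered samples came from separate fetuses, so p-values measure the spread between these samples, which may be in part technical.

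Integrins are adhesion receptors built from 1 alpha and 1 beta chain, and the pairing sets the ligand. The pair of Itgal and Itgb2, LFA-1, binds ICAM-1 and ICAM-2 and holds T-cells to the cells that present antigen. Itgae with Itgb7 binds E-cadherin on epithelium, whereas Itga4 binds VCAM-1 and fibronectin with Itgb1, and MAdCAM-1 with Itgb7. Itga6 with Itgb1 binds laminin, Itga5 with Itgb1 fibronectin, and Itgav with Itgb3 vitronectin and other matrix proteins. DP thymocytes lie in the thymic cortex, CD69 appears on those that have received a TCR signal, and selected cells move to the medulla. RNA of a chain does not show how much of the receptor is at the cell surface, and a change in the share of cells that carry a transcript cannot be told apart from a change in its level per cell.

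Sequence upstream of the start site was given in the RefSeq tables (GRCm38.p6) for 5 of the 10 genes, Itga4, Itga5, Itgav, Itgb1 and Itgb7. Those of Itga4 and of both its beta partners are shown, because Itga4 can pair with either and the RNA of 1 of them, Itgb7, rose in SP4 cells. Each is the 250 bases before the start site, 5′ to 3′ on the gene's strand, and capitals mark every match on either strand to GACCACCCA (Gli factors), TGTGGT (Runx), CCGGAAG (Ets), CAGCTG or CAGGTG (E proteins) and GGGCGG (Sp and Klf factors). No motif here contains another, and none of the matches shown overlap.
Itgb7 (chr15:102231936-102232185, minus strand): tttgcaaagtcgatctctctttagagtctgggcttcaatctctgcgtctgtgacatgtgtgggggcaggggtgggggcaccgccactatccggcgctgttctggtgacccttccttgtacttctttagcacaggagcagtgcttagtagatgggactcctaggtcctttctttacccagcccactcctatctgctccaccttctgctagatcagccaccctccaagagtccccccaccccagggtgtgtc
Itga4 (chr2:79255176-79255425, plus strand): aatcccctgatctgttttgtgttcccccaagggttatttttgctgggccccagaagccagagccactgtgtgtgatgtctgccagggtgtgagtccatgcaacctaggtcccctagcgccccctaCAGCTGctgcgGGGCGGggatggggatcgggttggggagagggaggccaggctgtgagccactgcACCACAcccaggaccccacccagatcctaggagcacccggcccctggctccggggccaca
Itgb1 (chr8:128685404-128685653, plus strand): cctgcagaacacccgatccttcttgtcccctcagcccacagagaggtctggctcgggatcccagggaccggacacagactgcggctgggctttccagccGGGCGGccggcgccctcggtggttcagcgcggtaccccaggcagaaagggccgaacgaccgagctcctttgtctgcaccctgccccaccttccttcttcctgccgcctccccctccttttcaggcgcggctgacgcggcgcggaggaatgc

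The Itga4 window held 1 CAGCTG, 1 GGGCGG and, on the other strand, 1 TGTGGT, whereas Itgb1 held 1 GGGCGG and Itgb7 held none of the motifs. Of all 32851 windows of the same length in the table, 32.7% held GGGCGG, 14.0% TGTGGT, 13% CAGCTG, 17.2% CAGGTG, 6.91% CCGGAAG and 0.225% GACCACCCA. The Gli sequence was in 0 of the 5 windows given for these genes. A match is a description of the letters, and its absence says nothing of where a factor binds.

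The labels were set against marker genes. Genes of T-cell identity, Cd3e among them (2732 to 3514), were high on all arrays. Cd69 had a median of 156 in CD69- DP, 1060 in CD69+ DP and 666 in SP4 arrays, and Cd8a medians of 4406, 3543 and 2154. Cd8b1 had medians of 4491, 3414 and 3006, and its SP4 range (1721 to 3371) overlapped with that of CD69+ DP cells (2882 to 4311), so that its RNA does not separate the SP4 arrays as their CD4+CD8- label would have it. On Gli3-/- number 1 it was higher in SP4 (3126) than in CD69+ DP cells (2882). Gli3 itself was dim on every array (27.6 to 37.1), so that the genotype labels could not be checked by it. SP4 arrays were not alike: the sum of 10 DP stage markers was 6360 on WT number 1 against 10516 to 12823 on the other 5. CD69+ DP arrays differed by number: the same sum was 10441 to 11008.5 on number 1 and 12922 to 15518 on number 2. Cd69 was there at 1204, 1416 and 1330 on number 1 and at 783, 675 and 917 on number 2 (WT, Gli3+/-, Gli3-/-). The 13 proliferation markers there summed to 5847 to 6206 and 10590 to 14541. The Y-linked Eif2s3y was at 229 to 696 on the WT and Gli3+/- arrays and at 15.1 to 22.5 on the Gli3-/- arrays, and Xist was at 39.7 to 52.4 on the WT number 1 arrays and at 2726 to 4850 on all others. Both genes were high together on the WT number 2 arrays and on all Gli3+/- arrays, the pattern of RNA from male and female cells. Whether fetuses were pooled was not tested. Sex and genotype cannot be told apart in the comparison of Gli3-/- with WT. Neutrophil markers stood out on 2 of the CD69+ DP arrays, WT number 1 and Gli3+/- number 1, with S100a8 at 80.1 and 226 against at most 26.9 on the other 4, and on all SP4 arrays (126 to 619). What lay behind either was not tested. Some results that lean on the 2 CD69+ DP arrays are given with and without them. No SP4 result can be given without arrays that carried these markers.

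The first question was how each chain changed when DP cells received the selecting signal. Averaged over genotypes, CD69+ DP cells had more Itgal and Itgb2 RNA than CD69- DP cells and less Itga6. These 3 of the 10 chains passed an adjusted p of 0.05 (limma, Benjamini-Hochberg over all genes), where 7.79% of all genes did. The 2 that rose compare with 3.06% of genes and the 1 that fell with 4.73%. The medians of the 10 differences and of all genes were 0.18 and 0.01.

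**Figure D1:**
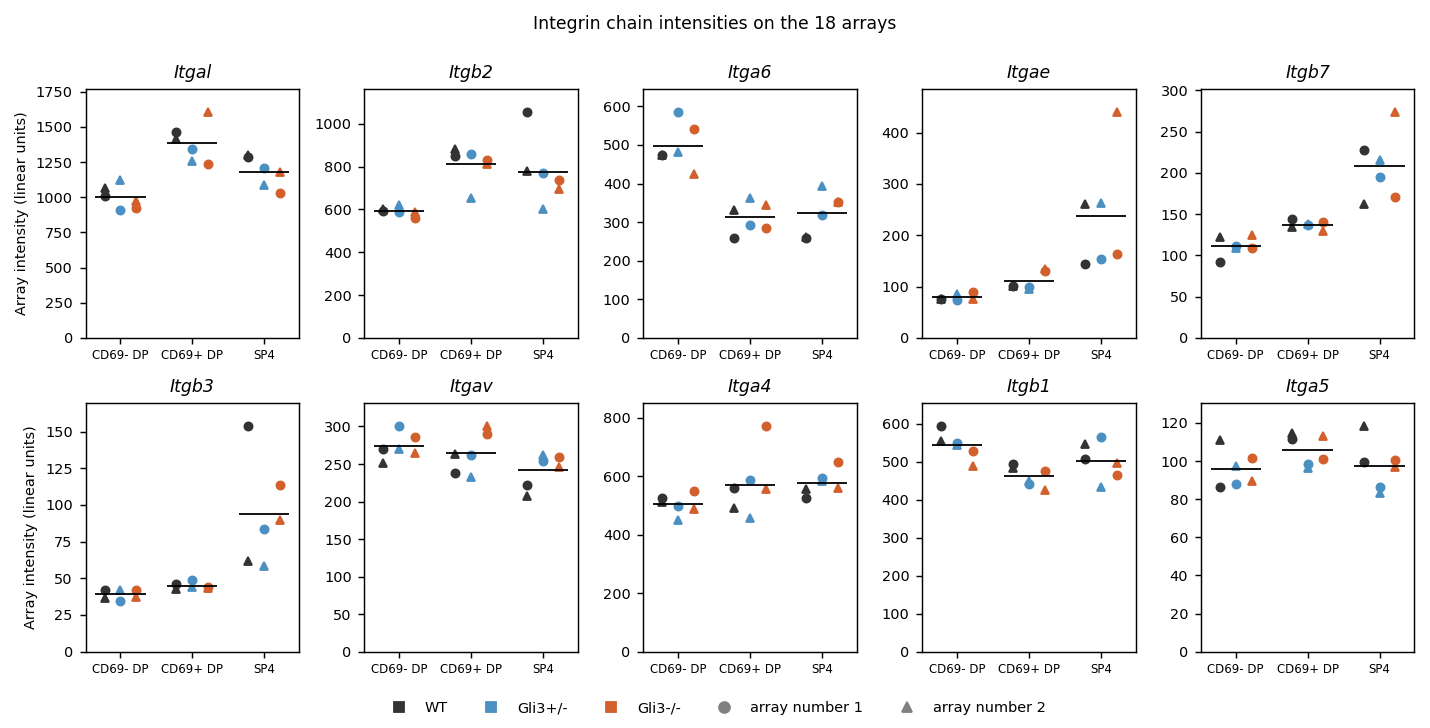
Array intensity (linear units, each panel with its own axis from 0) of the 10 integrin chains in the 3 populations, with genotype by colour, array number by symbol and the mean of 6 arrays as a line. Itgae, Itgb7 and Itgb3 are highest on the SP4 arrays, Itga6 is lower on all CD69+ DP and SP4 arrays than on any CD69- DP array, and Itga5 lies between 83.2 and 119 throughout.

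Both chains of LFA-1 rose together. Itgal, the alpha chain, was at 1010 and 1066 in WT, 912 and 1124 in Gli3+/-, with 925 and 975 in Gli3-/- CD69- DP cells. In CD69+ DP cells it was at 1465 and 1416, 1342 and 1258, and 1233 and 1608. Every CD69+ DP array was above every CD69- DP array, and the difference was 0.47 (SE 0.08, adjusted p = 0.00335). Itgb2, the beta chain shared by the leukocyte integrins, was at 592 and 601 in WT, 586 and 622 in Gli3+/-, then 558 and 586 in Gli3-/- CD69- DP cells. It was at 849 and 881, 858 and 653, and 831 and 813 in CD69+ DP cells. The ranges did not overlap, with Gli3+/- number 2 the lowest of the CD69+ DP arrays, and Itgb2 differed by 0.46 (SE 0.09, adjusted p = 0.00879).

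The rise of Itgb2 was 0.40 without the 2 CD69+ DP arrays that carried neutrophil markers, and no longer passed (adjusted p = 0.0664), whereas Itgal was at 0.44 (adjusted p = 0.038). In SP4 cells the chains were level with or below the CD69+ DP cells. Itgal had SP4 values of 1289 and 1299 in WT, 1205 and 1084 in Gli3+/-, with 1033 and 1180 in Gli3-/-, which overlapped with CD69+ DP cells (-0.23, SE 0.08, adjusted p = 0.122). Itgb2 had SP4 values of 1057 and 780 in WT, 772 and 602 in Gli3+/-, then 740 and 696 in Gli3-/-, a wider spread than in either DP population. Against CD69- DP cells, SP4 cells were higher in Itgb2 by 0.37 (SE 0.09, adjusted p = 0.0214), a call that was lost in 5 of the 12 fits that left out 1 array (WT number 1 and Gli3+/- number 1 in both populations, and Gli3-/- number 1 in CD69- DP, highest adjusted p = 0.0743). Itgal was higher by 0.24 and did not pass (SE 0.08, adjusted p = 0.0927).

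Itgb2 is abundant in neutrophils and other myeloid cells, so their markers are given beside it. The sum of the 11 neutrophil markers was 456 to 502 on the CD69- DP arrays, 467 to 898 on the CD69+ DP arrays and 648 to 1566 on the SP4 arrays. The 12 monocyte and macrophage markers summed to 608 to 654, 725 to 799 and 782 to 1340. At the first step 0 of the 11 neutrophil markers and 1 of the 12 monocyte markers rose, where 3.06% of all genes did. From CD69- DP to SP4 5 and 4 did, where 5.94% of all genes did. Their part in the Itgb2 values was not tested.

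Itga6, the laminin receptor chain, went the other way. It was at 473 and 475 in WT, 586 and 481 in Gli3+/-, with 542 and 425 in Gli3-/- CD69- DP cells, and at 258 and 332, 293 and 363, and 284 and 343 in CD69+ DP cells. All 6 CD69+ DP arrays were below all 6 CD69- DP arrays, a difference of -0.67 (SE 0.10, adjusted p = 0.0012), and the direction was the same in each genotype (-0.70 in WT, -0.70 in Gli3+/- and -0.62 in Gli3-/-). SP4 cells were at 258 and 263 in WT, 317 and 394 in Gli3+/-, then 353 and 351 in Gli3-/-, close to the CD69+ DP cells (0.04, 95% interval -0.17 to 0.26). The fall from CD69- DP to SP4 was 0.63 (SE 0.10) with an adjusted p = 0.000979.

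The first step was also taken within each array number. Within number 1 alone Itga6 differed by -0.94 (adjusted p = 2.38e-05), Itgal by 0.50 and Itgb2 by 0.55, all of which passed. Within number 2 alone the same chains were at -0.41, 0.43 and 0.36 and none passed (adjusted p 0.101, 0.0706 and 0.116, with 3 arrays against 3). The difference between the numbers was not past the threshold for Itga6 (0.52, SE 0.14, adjusted p = 0.142). The CD69+ DP arrays of number 1 and number 2 also differed in Cd69 and in DP stage markers, as given above. The part of that in these values was not tested.

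Over the 9 group means the genes most like Itga6, among 886 that were as bright as the median row and spanned at least 1 log2 unit, were Arpp21 (r = 0.99), Esrp1 (r = 0.99) and Ostm1 (r = 0.99). Arpp21 is among the DP stage markers listed here, with medians of 1460, 789 and 848 in the 3 populations. These correlations are a description over means that share populations.

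The step from CD69+ DP to SP4 cells asked which chains changed once cells had left the DP stage. Itgae, Itgb3 and Itgb7 were higher in SP4 cells, 3 of the 10 chains against 6.15% of all genes. Of all genes 4.41% were higher and 1.74% lower, and 0 chains were lower. The same 3 chains did not overlap between these populations, as was true of 4.46% of genes. At the earlier step the ranges of Itgae, Itgb3 and Itgb7 also separated, along with those of Itgal, Itgb2 and Itga6, making 6 of the 10 against 5.87% of genes, but the differences of Itgae, Itgb3 and Itgb7 did not pass. Those of Itgb3 parted only narrowly, between 42.3 in CD69- DP and 42.4 in CD69+ DP cells. All its DP values were below the background level that is defined further on.

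**Figure D2:**
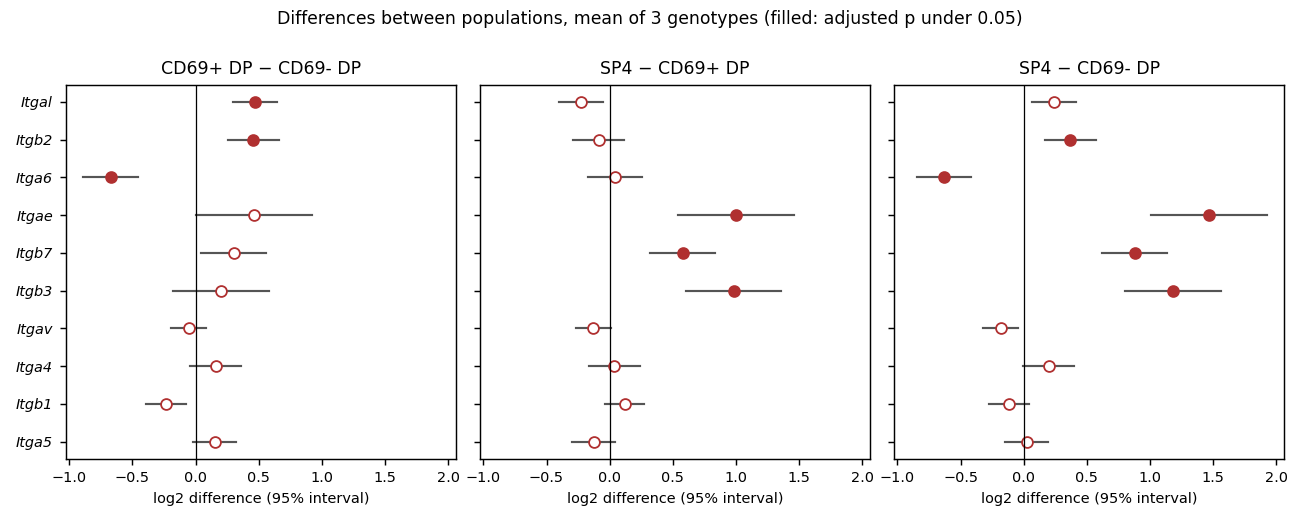
Log2 difference between populations, averaged over the 3 genotypes, for each integrin chain (points, with 95% intervals as lines; filled points have an adjusted p under 0.05). Itga6, Itgal and Itgb2 are filled at the first step, Itgae, Itgb7 and Itgb3 at the second, and Itgav, Itga4, Itgb1 and Itga5 in none of the 3 comparisons.

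Itgae, the CD103 chain that docks T-cells on epithelium, was at 75.8 and 75.4 in WT, 74.4 and 85.4 in Gli3+/-, with 88.5 and 75.0 in Gli3-/- CD69- DP cells. It was at 101 and 101, 98.2 and 95.9, and 130 and 135 in CD69+ DP cells. In SP4 cells it reached 144 and 261 in WT, 153 and 262 in Gli3+/-, then 162 and 441 in Gli3-/-. The populations were ordered without overlap, and number 2 was the higher SP4 array in all 3 genotypes. The second step was 1.001 (SE 0.21, adjusted p = 0.0124) and the whole path from CD69- DP 1.47 (SE 0.21, adjusted p = 0.000517), whereas the first step, 0.46, did not pass (adjusted p = 0.246).

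Itgb7, its partner, was at 92.4 and 123 in WT, 112 and 109 in Gli3+/-, with 109 and 124 in Gli3-/- CD69- DP cells. CD69+ DP cells lay close together, at 144 and 134, 137 and 138, and 140 and 129, and SP4 cells were at 228 and 162, 195 and 216, and 171 and 274. The 3 populations were again separate, with the lowest SP4 array, WT number 2 at 162, above the highest CD69+ DP array. Itgb7 rose by 0.58 at the second step (SE 0.12, adjusted p = 0.0105) and by 0.88 over the path (SE 0.12, adjusted p = 0.000304).

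Itgae and Itgb7 followed each other over the 9 group means (Pearson r = 0.97, Spearman rho = 0.95), a description over points that share populations. Between the arrays of a group they did not: number 2 and number 1 differed in the same direction for both genes in 2 of the 9 groups. The genes most like Itgae over the group means were Ccr2 (r = 0.99), Ipcef1 (r = 0.99) and Plac8 (r = 0.98), and those most like Itgb7 were Plac8 (r = 0.99), Cd7 (r = 0.98) and Ctss (r = 0.98).

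The rises of Itgae and Itgb7 at the second step were 1.01 and 0.59 without the 2 CD69+ DP arrays that carried neutrophil markers, about as large, but with fewer arrays the adjusted p were 0.0635 and 0.0521. That of Itgb3 was 1.03 and passed (adjusted p = 0.0276). Leaving out any single array kept all 3 calls (highest adjusted p 0.043 for Itgae, 0.0351 for Itgb7 and 0.0166 for Itgb3).

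**Figure D3:**
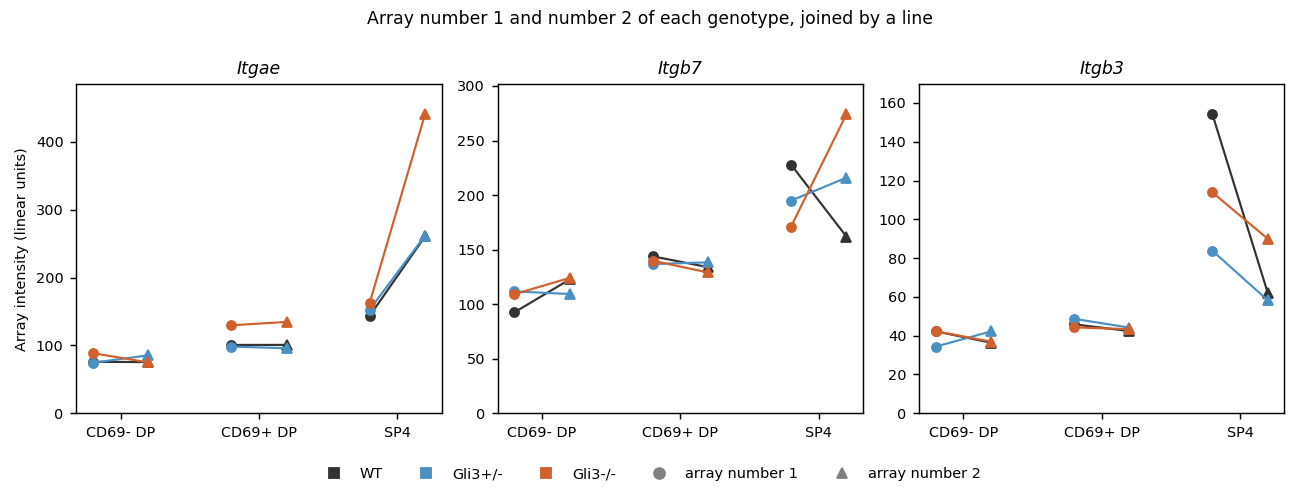
Array intensity (linear units) of Itgae, Itgb7 and Itgb3 on array number 1 (circles) and number 2 (triangles) of each genotype, joined by a line, in the 3 populations. In SP4 cells Itgae is higher on number 2 in each genotype and Itgb3 on number 1, whereas the lines of Itgb7 cross.

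Itgae in SP4 cells differed with the array number. Number 2 exceeded number 1 there by 1.03 (SE 0.13, adjusted p = 0.000705) against -0.02 in CD69- DP and 0.01 in CD69+ DP cells, and the difference between SP4 and CD69+ DP cells was itself 1.02 (SE 0.18, adjusted p = 0.0384). In SP4 cells 2.53% of all genes differed by number, and 0.207% differed in that way between populations. Itgb3 differed in the opposite direction in SP4 cells, by -0.73 (SE 0.16, adjusted p = 0.0263), and over all 9 groups 0 of the 10 chains differed by number (smallest adjusted p = 0.0924, Itga4), against 11.6% of genes. Within number 1 alone the second step of Itgae was 0.49 (adjusted p = 0.00494), and within number 2 alone it was 1.51 (adjusted p = 0.000398), while Itgb7 was at 0.49 and 0.67, which also passed.

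Other marker lists differed by number in SP4 cells too, and are given beside Itgae, which SP8 cells, gamma delta T-cells and mast cells also carry. Some of these lists also differed by number in DP cells, where Itgae did not. The 8 SP8 and cytotoxic markers summed to 1351 to 1817 on the number 1 arrays and 2631 to 3245 on the number 2 arrays. Of the 8, 5 were higher in SP4 than in CD69- DP cells, where 5.94% of all genes were. On all 6 SP4 arrays 1 was no brighter than the background level (the 95th percentile of olfactory and vomeronasal receptor genes on the same array). The 7 mast cell and basophil markers summed to 271 to 286 and 324 to 501, and the 8 immediate early genes to 876 to 1206 and 2579 to 2797. The immediate early genes were also apart in CD69- DP (728 to 804 and 1419 to 1813) and CD69+ DP cells (1066 to 1293 and 2198 to 2601). In CD69+ DP cells the SP8 and cytotoxic markers (1388 to 1734 and 1913 to 2000) and gamma delta T-cell markers (584 to 610 and 719 to 804) were apart too. The mast cell and basophil markers overlapped between the numbers in both DP populations. The 6 regulatory T-cell markers overlapped between the numbers (1608 to 1762 and 1611 to 1881), and Foxp3 was at 49.6 to 53.5, below the background level. The 6 gamma delta T-cell markers summed to 1056 on Gli3-/- number 2, the SP4 array with the highest Itgae, against 626 to 723 on the other 5, and Il2rb was at 473 there against 139 to 268. Their part in the Itgae values was not tested.

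Itgb3, the beta chain of the vitronectin receptor, was at 34.3 to 42.3 in CD69- DP cells and 42.4 to 48.7 in CD69+ DP cells. In SP4 cells it was at 154 and 62.0 in WT, 83.8 and 58.2 in Gli3+/-, then 114 and 89.9 in Gli3-/-. Every SP4 array was above every DP array, and the difference at the second step was 0.98 (SE 0.18, adjusted p = 0.00499) and from CD69- DP cells 1.18 (SE 0.18, adjusted p = 0.000604). These are differences from dim values: all DP arrays and 2 of the 6 SP4 arrays were at or below the 95th percentile of the 1394 olfactory and vomeronasal receptor genes on the same array (65.0 to 81.0), taken as the background level. With 2 of the SP4 arrays themselves at or below that level, no lower bound on the fold can be given over all arrays. Itgb3 was above that level on all 3 SP4 arrays of number 1 and on 1 of the 3 of number 2. Within number 1, counting the DP arrays at that level, Itgb3 was at least 1.43-fold higher in SP4 than in CD69+ DP cells. Within number 2 no fold can be given. The other 9 chains were above the background level on all 18 arrays.

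Markers of other cell types are given beside Itgb3, which platelets carry. Of the 7 platelet and megakaryocyte markers measured, 0 rose at either step, 0 had a positive difference from CD69- DP to SP4 cells, 5 were at or below the background level on all 6 SP4 arrays, and Pf4 was at 25.8 to 32.6 in SP4 cells. At the step from CD69+ DP to SP4 cells 4 of 11 neutrophil, 3 of 12 monocyte and macrophage, 2 of 7 mast cell and basophil and 2 of 6 dendritic cell markers rose, where 4.41% of all genes did. The part of any of these cells in the Itgb3 values was not tested.

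The genes most like Itgb3 over the group means were Naaa, Rgs16 and Tspan31 (r = 0.98 each, among 887), a ranking in which the 6 DP means of Itgb3 lie below the background level. Itgav, the alpha chain that pairs with Itgb3, did not rise in SP4 cells. It was at 252 to 301, 233 to 300 and 208 to 262 in the 3 populations, and its difference of -0.18 from CD69- DP to SP4 cells did not pass (SE 0.06, adjusted p = 0.101). A second row for Itgav was dim, at 30.4 to 56.6, and was not used.

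The remaining chains, of the receptors for fibronectin and VCAM-1, passed at no step. Itga4 was at 450 to 551 in CD69- DP, 458 to 773 in CD69+ DP and 525 to 650 in SP4 cells, with the highest value on Gli3-/- CD69+ DP number 1, and its differences were 0.16, 0.04 and, over the path, 0.20 (95% interval -0.00 to 0.40). Its partner Itgb7 rose in the same cells, as described above, and its other partner Itgb1 did not. Itgb1 was at 489 to 596, 426 to 495 and 433 to 565. The first step of Itgb1, -0.24 (SE 0.07), was just short of the threshold at an adjusted p = 0.0693, and passed with the array number as a replicate block (adjusted p = 0.0444, in a fit that called 12.1% of all genes), but not with a block for each genotype and number (0.0649). Itga5 was at 86.3 to 111, 96.2 to 115 and 83.2 to 119, and its difference from CD69- DP to SP4 cells was 0.02 (95% interval -0.14 to 0.19).

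From CD69- DP to SP4 cells 4 chains were higher (Itgae, Itgb3, Itgb7 and Itgb2) and 1 lower (Itga6), 5 of the 10 where 9.78% of all genes passed (5.94% higher and 3.84% lower). The ranges were separate for 4 of the 10, Itgb2 being the exception among those that passed, against 6.83% of genes. With the array number as a replicate block the 3 comparisons called 4, 3 and 5 chains, and 12.1%, 11.2% and 14.1% of all genes.

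Taken within 1 genotype, 2 arrays against 2, fewer passed. At the first step 0 chains did in WT, Gli3+/- or Gli3-/- cells (smallest adjusted p 0.0973, 0.174 and 0.145), where 0.681%, 0.189% and 0.289% of genes did, and at the second step 0 again (smallest adjusted p 0.117, 0.513 and 0.137, against 0.618%, 0.0721% and 0.194%). With the array number as a replicate block 1 chain passed in each genotype at the first step, against 3.74%, 1.74% and 2.95% of genes. These were Itga6 in WT (adjusted p = 0.0308), Itga6 in Gli3+/- (adjusted p = 0.0486, but 0.0713 with a block for each genotype and number) and Itgal in Gli3-/- (adjusted p = 0.0348). At the second step the block called Itgb3 in WT (adjusted p = 0.0229) and in Gli3-/- (adjusted p = 0.0207) and 0 chains in Gli3+/-, against 3.15%, 2.60% and 0.803% of genes.

 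From CD69- DP to SP4 cells the chains that passed were 3 in WT, 0 in Gli3+/- and 1 in Gli3-/-, against 3.62%, 0.672% and 0.969% of genes. In WT, Itgb3 (1.32, adjusted p = 0.028) and Itgb7 (0.85, adjusted p = 0.0369) were higher and Itga6 (-0.87, adjusted p = 0.0131) lower. In Gli3-/- Itgae was higher (1.72, adjusted p = 0.045), and in Gli3+/- the smallest adjusted p was 0.0792 (Itgb7). Itgae, Itgb3, Itgb7 and Itgb2 had positive differences and Itga6 a negative one in all 3 genotypes, and with the replicate block the number that passed was 5 in WT, 2 in Gli3+/- and 3 in Gli3-/-, against 6.55%, 1.77% and 2.24% of genes. Itgae in Gli3+/- (adjusted p = 0.0392) was 1 of these and did not pass with a block for each genotype and number (0.0665).

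The study's main question was what loss of Gli3 changes. No chain differed between Gli3-/- and WT cells at an adjusted p of 0.05: 0 of the 10 in each of the 3 populations (CD69- DP, then CD69+ DP, then SP4), where 0.0135%, 0.00902% and 0.0135% of all genes did. Those shares are 3, 2 and 3 genes, of which 3, 2 and 2 were sex-linked genes that were lower in Gli3-/- cells. At an unadjusted p under 0.05 there were 0, 0 and 1 of the 10, against 2.01%, 2.91% and 5.14% of genes. The groups did not overlap for 3, 4 and 6 of the 10 chains, against 29.1%, 28.8% and 30.4% of all genes. With 2 arrays a group the intervals were wide. In size the largest Gli3-/- differences were -0.18 in CD69- DP (Itgb1), 0.39 in CD69+ DP (Itgae) and 0.47 in SP4 cells (Itgae). The 95% interval of Itgae in CD69+ DP cells was -0.40 to 1.18.

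**Figure D4:**
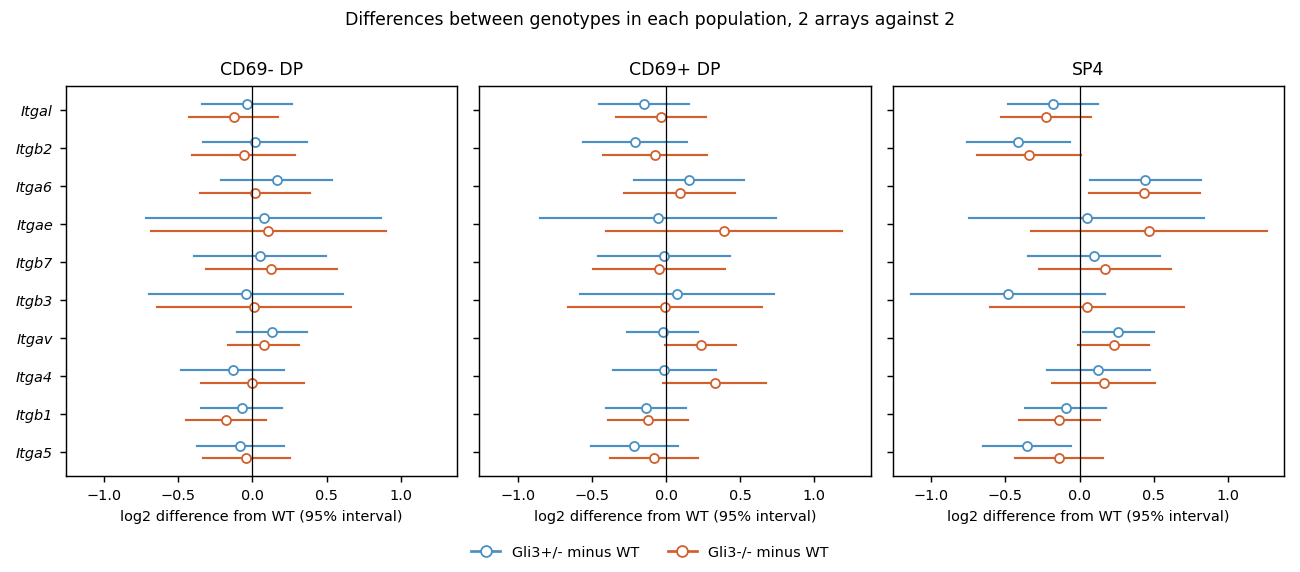
Log2 difference from WT of Gli3+/- and Gli3-/- cells for each integrin chain in the 3 populations (points, with 95% intervals from 2 arrays against 2). None has an adjusted p under 0.05; in SP4 cells Itga6 and Itgav lie above 0 and Itgb2 below 0 in both mutant genotypes, which share their WT arrays.

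Itga6 and Itgav in SP4 cells, and Itgav in CD69+ DP cells, were named by the study as higher in Gli3-/- from these same arrays, so their direction here is not independent. The study's choice combined p-values, with no adjustment stated, with a principal component, so the adjusted p given here apply a different threshold. Unadjusted p in the limma fit here were 0.0247 for Itga6 and 0.0567 for Itgav in SP4 cells, and 0.0541 for Itgav in CD69+ DP cells. Itga6 was at 258 and 263 in WT and 353 and 351 in Gli3-/- SP4 cells, a difference of 0.44 (95% interval 0.06 to 0.81, adjusted p = 0.96). Gli3+/- SP4 cells, at 317 and 394, differed from the same WT arrays by 0.44 (95% interval 0.07 to 0.82, adjusted p = 1). Itgav was at 222 and 208 in WT, 253 and 262 in Gli3+/-, with 259 and 246 in Gli3-/- SP4 cells, all mutant arrays being above both WT arrays (0.23 for Gli3-/-, 95% interval -0.01 to 0.47, adjusted p = 0.962). In CD69+ DP cells Itgav was at 239 and 264 in WT and 290 and 300 in Gli3-/- cells (0.23, 95% interval -0.00 to 0.47), and averaged over the populations its difference was 0.18 (95% interval 0.04 to 0.32, adjusted p = 1).

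In both mutant genotypes Itgb2, Itgal, Itgb1 and Itga5 had negative differences in SP4 cells and Itga4, Itgae and Itgb7 positive ones, besides Itga6 and Itgav. Itgb2 was at -0.34 in Gli3-/- (95% interval -0.69 to 0.01) and -0.41 in Gli3+/- (95% interval -0.76 to -0.06). Itga5 was at -0.14 and -0.35 in Gli3-/- and Gli3+/-, Itgal at -0.23 and -0.18, Itgb1 at -0.14 and -0.09, Itga4 at 0.16 and 0.12 and Itgb7 at 0.17 and 0.09, all with an adjusted p of at least 0.972. The WT arrays in both comparisons are the same, and 1 of them, number 1, had the highest Itgb2 of all 18 arrays. Itgae was at 0.47 in Gli3-/- SP4 cells with an interval of -0.32 to 1.26, set by the 162 and 441 of its arrays. Against WT SP4 cells the DP stage markers had positive differences in 10 of 10 cases in Gli3-/- (median 0.58) and 10 of 10 in Gli3+/- (median 0.63), and the selection and SP markers had negative ones in 10 of 12 in Gli3-/-, with 0 passing in any of these. Their part in the SP4 values of Itga6, Itgav and Itgb2 was not tested. Without WT SP4 number 1, which had the lowest sum of DP stage markers, the Gli3-/- differences were 0.42 for Itga6, 0.28 for Itgav and -0.12 for Itgb2. Gli3+/- cells differed from WT in 0 chains in each population, where 0 genes passed (smallest unadjusted p for a chain 0.0214, Itga5 in SP4), and the Gli3-/- difference itself varied between populations for 0 chains (smallest unadjusted p 0.11, Itga6, where again 0 genes passed).

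Integrins grip only after the cell activates them from within, through Rap1, talin and kindlin, and 23 genes of that machinery were measured. At the first step 2 rose and 1 fell, where 3.06% and 4.73% of all genes did. Rasgrp1, the exchange factor that loads Ras with GTP after a TCR signal, had medians of 1811, 2424 and 1676 along the path, rising by 0.42 (adjusted p = 0.00541) and then falling by 0.53 (adjusted p = 0.00169). Rasgrp2, a Rap1 exchange factor, did the opposite, from 256 to 163 to 255 (-0.63, adjusted p = 0.0151, then 0.70, adjusted p = 0.0105). Rap1b, a Rap1 GTPase, rose at the first step by 0.42 (adjusted p = 0.0123). At the second step 3 rose and 1 fell (4.41% and 1.74% of all genes), with the Rap GTPase-activating Sipa1l1 (0.32, adjusted p = 0.0089) and the adaptor Skap2 (adjusted p = 0.0126, and above the background level on 3 of the 18 arrays) beside Rasgrp2. Over the path 2 rose and 0 fell (5.94% and 3.84% of all genes), of which Flna, a filamin that binds beta chain tails, rose by 0.47 (adjusted p = 0.00529).

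Signalling behind the integrins was measured by 21 genes, of which 3 rose and 1 fell at the first step, against the same 3.06% and 4.73% of all genes. Ptk2b, the Pyk2 kinase, rose from a median of 356 to 577 (0.72, adjusted p = 0.00176), Arhgef6, an exchange factor for Rac, by 0.60 (adjusted p = 0.0319) and Zyx, zyxin, by 0.34 (adjusted p = 0.0378), whereas the adaptor Crk fell by 0.29 (adjusted p = 0.0335). At the second step 0 rose, against 4.41% of genes, and Lims1, part of the integrin-linked kinase complex, fell by 0.40 (adjusted p = 0.0279). Over the path 4 were higher and 1 lower (5.94% and 3.84% of genes), and Git1, a scaffold that binds paxillin, was among the former, by 0.35 (adjusted p = 0.0415).

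Of 28 genes of integrin ligands, 1 fell at the first step (Lamc1, a laminin chain, -0.50, adjusted p = 0.00412), 2 rose at the second, and 3 were higher and 2 lower in SP4 than in CD69- DP cells. The shares of all genes were 4.73% for falls at the first step, 4.41% for rises at the second, and 5.94% and 3.84% over the path. Icam1, the ligand of LFA-1, had medians of 87.0, 102 and 126 and was higher in SP4 than in CD69- DP cells by 0.58 (adjusted p = 0.00025), and Cdh1, the E-cadherin that Itgae with Itgb7 binds, had medians of 57.1, 54.3 and 87.5. Cdh1 was at or below the background level on all DP arrays and above it on 4 of the 6 SP4 arrays, so that no fold is given. Its measured values were higher in SP4 than in CD69+ DP cells (adjusted p = 0.0157). Icam2, another ligand of LFA-1, was lower in SP4 than in CD69- DP cells (-0.42, adjusted p = 0.012), as was Lamc1 (-0.43, adjusted p = 0.00686), while Tgfb1, whose latent form Itgav integrins bind, was higher (0.44, adjusted p = 0.0177). The remaining integrin chains were mostly dim. Of 15 measured, 11 were at or below the background level on all 6 SP4 arrays, and those that passed were among the dim ones, Itgax (at the second step, adjusted p = 0.0089) and Itga2 (over the path, adjusted p = 0.0143), both at or below the background level on all 18 arrays, so that no fold is given. Of the 15, 0 rose at the first step, 1 at the second and 2 over the path, against 3.06%, 4.41% and 5.94% of all genes. In all 4 of these lists 0 genes differed between Gli3-/- and WT cells in CD69- DP, CD69+ DP or SP4 cells, where 0.0135%, 0.00902% and 0.0135% of all genes did.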

How the data were processed

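RNA of sorted thymocytes was hybridised to Affymetrix GeneChip Mouse Gene 2.0ST arrays, 18 in all, 2 for each of 3 genotypes and 3 populations. The authors deposited intensity values, linear and not yet logged, from RMA in the oligo package of R (versions and genome build not given in the sources used here); array medians were 59.3 to 65.8. The table had 41345 rows, of which 23521 carried a single gene symbol in the platform annotation, 1820 several and 16004 none, and single-symbol rows gave 22180 genes. A row shared by Itga4 and another gene was not used.

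The log2 of the intensities was taken, and the 9 group means were fitted together over all arrays with limma 3.58.1 in R 4.3.3 (lmFit, eBayes; 9 residual and 4.73 prior degrees of freedom), two-sided, with Benjamini-Hochberg adjustment over all genes and a threshold of 0.05. Means give the 3 genotypes equal weight. The number of arrays limits precision.

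The same number in 2 groups paired the arrays: deviations from the group means correlated at over 0.1 in 34 of 36 pairs of groups (median 0.31), and in 9 of 9 within a population and 9 of 9 within a genotype. The fit with the number as a replicate block is therefore given where it changes the call of a chain.

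Every chain is counted in each comparison given, though not always named, and for the lists of other integrin chains, activation, signalling and ligands up to 6 genes with the smallest p are named. Likeness was taken for chains whose group means spanned at least 1 log2 unit. Members and lists were chosen with earlier results of these data known. Promoter sequences came from RefSeq tables for GRCm38.p6. Alternatives were other scalings, filters, priors, blocks and left-out arrays.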

Additional observations from a re-analysis of the deposited data

Results flagged for a closer look

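The difference between array number 2 and number 1 in Itgae was larger in SP4 than in CD69+ DP cells by 1.02 on the log2 scale (adjusted p = 0.0384), which drew attention because the 2 populations differed under the same contrast. Number 2 was the higher SP4 array in each of the 3 genotypes, by 261 to 144 in WT, 262 to 153 in Gli3+/- and 441 to 162 in Gli3-/-. The contrast was added after the data were seen.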

How the results depend on the processing

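Of the steps averaged over genotypes, the counts of chains that passed were 3, 3 and 5. They stayed within 1.5 times of these under other scalings, offsets, filters, priors and blocks, with these exceptions: the first step had 5 on the number 1 arrays alone and 0 on the number 2 arrays alone, and the second step had 1 without both CD69+ DP arrays that carried neutrophil markers, an alternative added after the data were seen. With the replicate block the counts were 4, 3 and 5, and Itgb1 at the first step (-0.24) was the 1 chain gained; it changed no other call of these steps. Leaving out each array in turn gave 3 to 3, 3 to 3 and 4 to 6. For genotype comparisons 0 chains passed under every alternative run.

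Over all genes, the replicate block raised the second step from 1365 to 2475 and the first from 1728 to 2673. Leaving out both neutrophil-marked arrays gave 709 and 626, leaving out 1 array 791 to 1870 and 980 to 1869, and the number 1 and number 2 arrays alone gave 2837 and 1056 at the first step. Over the path number 2 alone gave 1426 against 2169.

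Signs turned for small differences. With quantile normalisation Itga4 in CD69- DP cells (Gli3-/- minus WT) became 0.042, Itgb3 there -0.0090 and averaged over populations -0.0010. With median centring Itga6 and Itgb3 there became -0.0053 and -0.011. On number 1 alone Itga4 at the second step was -0.11. On number 2 alone Itga6 at the second step was -0.062, Itgav at the first 0.013 and Itga5 over the path -0.0056. Itga6 at the second step was -0.071 without both neutrophil-marked arrays. The cause was not tested. Calls that depended on the setting were Itgb1 at the first step, which also passed with median centring (adjusted p = 0.0348) and an offset of 16 (0.0425), Itgav over the path, which passed with that offset (0.0431), and Itgb2 over the path, which was lost with all rows tested (0.0502) and on number 2 alone (0.438).

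Leaving out 1 array turned these signs, given as ranges. Between populations they were Itga4 at the second step (-0.043 to 0.12), Itga6 at the second step (-0.020 to 0.10) and Itga5 over the path (-0.036 to 0.086). For Gli3-/- minus WT in CD69- DP cells they were Itga4 (-0.088 to 0.084), Itga5 (-0.22 to 0.14), Itga6 (-0.16 to 0.19), Itgae (-0.012 to 0.23), Itgb3 (-0.10 to 0.12) and Itgb7 (-0.076 to 0.33). In CD69+ DP cells they were Itga5 (-0.16 to 0.0023), Itga6 (-0.090 to 0.27), Itgal (-0.22 to 0.16), Itgb3 (-0.065 to 0.048) and Itgb7 (-0.11 to 0.011). In SP4 cells they were Itgae (-0.25 to 1.19), Itgb3 (-0.61 to 0.71) and Itgb7 (-0.17 to 0.51), and averaged over populations Itgb3 (-0.20 to 0.24) and Itgb7 (-0.029 to 0.20).

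An ordinary t-test of Gli3-/- against WT cells called 894, 816 and 850 genes in the 3 populations at an unadjusted threshold. After adjustment it called 0. Itgae in CD69+ DP and Itga6 in SP4 cells were among those called without adjustment. For array genes the paper names the moderated limma statistic, so the ordinary t-test is not the study's choice. The moderated fit here called 446, 646 and 1139 genes at the same unadjusted threshold. Itga6 in SP4 cells was among them, and Itgae in CD69+ DP cells was not. Signal over background limits Itgb3.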
